A study of Mus musculus with 6 samples.

Results

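The genes described here are those of fatty acid oxidation and ketone body formation in mouse liver tumors, 32 genes chosen by symbol from a fixed list out of the 47643 genes of the count table. All 32 were present, and 31 of them were among the 17012 genes that passed the filter on low counts. The RNA came from liver tumors of mice of the FVB/N strain, all of which carried LAP-tTA and tetO-MYC. In these animals the LAP promoter, which is active in hepatocytes, drives a transactivator that switches on a MYC transgene once doxycycline is removed. All mice drank doxycycline at 100 mg/L up to the age of 4 weeks, and MYC was then on for 8 weeks. For the next 2 weeks they were given vehicle or 50 mg/kg/day of GSK3326595, which inhibits PRMT5, an enzyme that methylates arginines. Each group had 3 libraries, and nothing in the labels says whether these came from separate animals, so the p-values reflect only how these samples spread, and that spread may be technical. Sex was not given in the labels.

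Hepatocytes burn fatty acids mainly by mitochondrial beta-oxidation. Long chains are activated to acyl-CoA, carried across the mitochondrial membranes as carnitine esters and shortened in repeated rounds of dehydrogenation, hydration, a second dehydrogenation and thiolysis. Very long chains are first shortened in peroxisomes, and the far end of a chain can be oxidized by CYP4A enzymes of the endoplasmic reticulum, which is called omega-oxidation. During fasting, the acetyl-CoA produced is turned into ketone bodies. Many of these genes are targets of the nuclear receptor PPARA.

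Libraries held from 25814339 to 33621083 expected counts. GSK3326595 replicate 2 stood apart on the first principal component of all tested genes, at 103 against -50.2 to 9.37 for the other 5 libraries. Vehicle replicate 3 was closer to GSK3326595 replicate 3 (Pearson r of log2 CPM across genes 0.973) than to vehicle replicates 1 and 2 (0.967 and 0.951). Hepatocyte markers (8 genes, Alb among them) summed to 18853 to 45262 CPM (counts scaled to library size) in vehicle and 9668 to 31861 CPM in GSK3326595. The lowest sum was in GSK3326595 replicate 3, where 7 of the 8 markers had their lowest value. Proliferation markers (Mki67 and Top2a) summed to 983 to 1457 CPM in vehicle and to 804, 767 and 1574 CPM in GSK3326595 replicates 1, 2 and 3. Stellate and fibroblast markers (6 genes) summed to 116 to 505 CPM against 509 to 749 CPM. Among them Col1a1, Dcn, Lrat and Reln overlapped between the groups, and Col1a2 and Col3a1 did not. MHC class II genes (3 genes) summed to 17.0 to 48.6 CPM against 191 to 848 CPM. Adipocyte markers (3 genes) were at or near 0, with sums of at most 0.119 CPM and Lep at 0 in all libraries. In bulk tissue, fewer cells of a type and less RNA per cell cannot be told apart, and the part of these markers in the results was not tested.

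The sequences around a RefSeq start of 4 members are shown first, because the results turn on these genes. Fabp1 is the most abundant member, and Hadha and Hadhb are 2 subunits of the same enzyme that share an upstream region. Acaa1a and Acaa1b are near-identical copies that moved apart in 1 library. RefSeq windows on build GRCm38.p6, from 250 bases before to 50 bases after a gene start, were found for 25 of the 32 members. The sequences are those of the reference assembly, not of FVB/N. Fabp1 lies on the plus strand (chr6:71199629-71199928), and capitals mark its match to AGGNCANAGGNCA, read here on the reverse strand, and to TATAAA. Hadhb lies on the plus strand (chr5:30155003-30155302), and its window shares 228 bases with that of Hadha on the minus strand (chr5:30154931-30155230). Acaa1a lies on the plus strand (chr9:119341044-119341343) and Acaa1b on the minus strand (chr9:119157044-119157343). The Acaa1a window lies wholly inside the gene as annotated in GENCODE M21, which starts at 119339676, so it is not upstream of that start. In the last 3 sequences capitals mark the bases after the RefSeq start.
Fabp1: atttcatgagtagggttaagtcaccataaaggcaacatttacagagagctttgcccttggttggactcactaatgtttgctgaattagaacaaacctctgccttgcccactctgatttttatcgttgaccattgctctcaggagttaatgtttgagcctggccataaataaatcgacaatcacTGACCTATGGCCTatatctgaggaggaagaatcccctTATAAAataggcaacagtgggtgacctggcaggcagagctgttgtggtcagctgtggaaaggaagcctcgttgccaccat
Hadhb: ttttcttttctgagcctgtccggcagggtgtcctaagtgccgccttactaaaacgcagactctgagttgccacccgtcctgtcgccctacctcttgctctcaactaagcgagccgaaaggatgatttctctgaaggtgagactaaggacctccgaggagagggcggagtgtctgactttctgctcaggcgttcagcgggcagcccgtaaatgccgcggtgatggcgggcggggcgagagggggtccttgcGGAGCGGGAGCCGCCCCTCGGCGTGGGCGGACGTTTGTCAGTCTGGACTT
Acaa1a: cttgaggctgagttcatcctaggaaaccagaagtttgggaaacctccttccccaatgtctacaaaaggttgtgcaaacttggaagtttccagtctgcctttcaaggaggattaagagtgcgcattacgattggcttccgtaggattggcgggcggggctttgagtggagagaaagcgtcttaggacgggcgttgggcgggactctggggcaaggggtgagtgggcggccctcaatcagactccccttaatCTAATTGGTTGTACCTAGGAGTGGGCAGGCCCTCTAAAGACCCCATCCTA
Acaa1b: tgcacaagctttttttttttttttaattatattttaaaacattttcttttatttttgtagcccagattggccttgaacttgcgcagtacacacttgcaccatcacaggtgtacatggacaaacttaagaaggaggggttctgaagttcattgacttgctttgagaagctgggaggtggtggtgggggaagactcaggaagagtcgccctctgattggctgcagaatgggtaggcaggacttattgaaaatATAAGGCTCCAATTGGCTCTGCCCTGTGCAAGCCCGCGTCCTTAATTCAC

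The motif AGGNCANAGGNCA, a loose form of the spaced repeat that PPARA and its partner RXR are known to bind, was searched on both strands. It was found in the window of 1 of 25 members, Fabp1, as AGGCCATAGGTCA from 67 to 55 bases before the start, and in 0.381% of all 32851 windows. The stricter AGGTCANAGGTCA was in no member window and in 0.0396% of all windows. The single element AGGTCA, which lies within the stricter motif and is one form of each repeat in the loose one, was also searched on both strands. It was in the windows of 7 of 25 members, Acadm, Acadvl, Acot3, Acot4, Cpt1a, Fabp1 and Slc27a2, and in 16.3% of all windows. TATAAA was in those of Acot4, Fabp1 and Fgf21, 3 of 25 members, and in 13.6% of all windows. The dinucleotide CG occurred 3 times in the Fabp1 window and 4 times in that of Acaa1b, against 10 times in Acaa1a and 24 times in Hadhb. Its median was 13 over the 27 windows of members (some genes have more than 1) and 7 over all windows. A match is a description of letters and not a shown binding site.

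**Figure D1:**
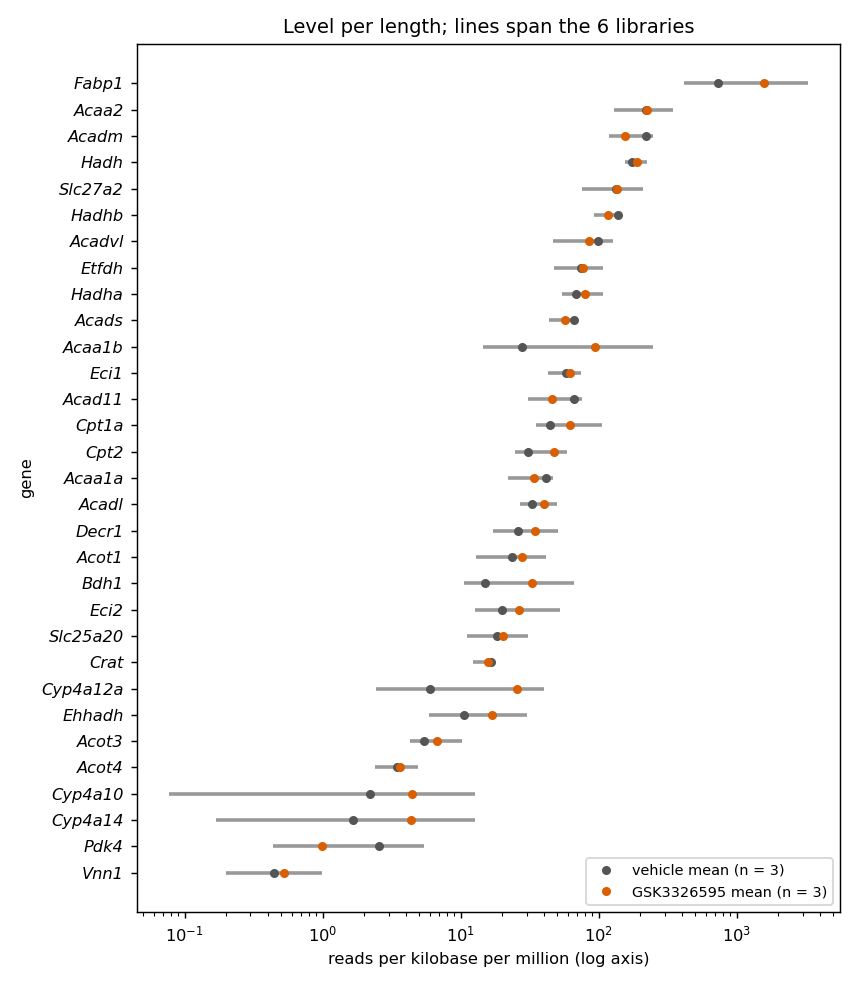
Level per length (RPKM, log axis) of 31 members, without Fgf21, which had a library at 0. Dots are the means of 3 vehicle and 3 GSK3326595 libraries, and grey lines span all 6 libraries. Fabp1 stands above every other member, and the Cyp4a and Acaa1b lines are the longest.

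Levels were compared between genes per length, as RPKM, which is CPM divided by the length in kilobases of the longest protein-coding transcript. Fabp1, the fatty acid binding protein of hepatocytes, was the most abundant member, with 416 to 3311 RPKM over the 6 libraries. It was followed by Acaa2, the mitochondrial thiolase, with 129 to 343 RPKM, and Acadm, the medium-chain acyl-CoA dehydrogenase, with 119.6 to 246 RPKM. At the other end were Pdk4 (0.435 to 5.44 RPKM), Vnn1 (0.198 to 0.988 RPKM) and Fgf21 (0 to 1.14 RPKM). Of 31 neighbouring pairs in the order of mean levels, the ranges failed to overlap only between Fabp1 and Acaa2. By these ranges over all libraries, the order below Fabp1 is not resolved between neighbours. The order of neighbours within each single library was not compared.

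The comparison asks how inhibition of PRMT5 in MYC-driven tumors bears on the genes that burn fatty acids. No member rose or fell by edgeR's quasi-likelihood test adjusted over all genes (adjusted p from 0.522 to 0.992 over the members, threshold 0.05). That test called 0% of all 17012 genes in either direction. Of the 31 members tested, 23 had log2 differences (GSK3326595 minus vehicle) above 0 and 8 below 0, while 53.1% of all tested genes were above and 46.9% below 0. The median log2 difference was 0.23 over the members and 0.03 over all tested genes. At an unadjusted p under 0.05, 1 member was higher, Cyp4a12a, and 0 were lower, against 5.45% and 3.81% of all tested genes (9.26% together). DESeq2 called 0 members, against 313 of all genes with an adjusted p (1.8%), and gave no adjusted p for Acaa1b, Cyp4a10 and Cyp4a14. Limma-voom called 0 members and 0% of all genes.

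The members spread most among the GSK3326595 libraries. Their reads made up 0.395%, 0.377% and 0.424% of all reads in vehicle replicates 1, 2 and 3, and 0.438%, 0.734% and 0.296% in GSK3326595 replicates 1, 2 and 3. GSK3326595 replicate 2 had the highest CPM of the 6 libraries in 20 of 32 members, whereas it was highest in 22% of all tested genes. GSK3326595 replicate 3 had the lowest value in 21 of 32 members and in 20.5% of all tested genes. Both held together in 12 of 32 members, and in 6.21% of all tested genes. These libraries were singled out after their values were seen, and no test was made of them.

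The direction of the list turned without GSK3326595 replicate 2, when 10 members lay above and 21 below 0, with a median of -0.21. Without GSK3326595 replicate 3 the direction stayed, with 24 above and 8 below 0 and a median of 0.39. At an unadjusted edgeR p under 0.05, 0 members were then higher and 4 lower without replicate 2 (5.59% and 4.46% of all genes), and 7 were higher and 0 lower without replicate 3 (9.25% and 3.72% of all genes). The 4 were Acad11, Eci2, Acaa1b and Cyp4a14, and the 7 were Cpt2, Acadl, Decr1, Ehhadh, Cyp4a12a, Bdh1 and Fabp1. None passed adjustment over all genes in either fit.

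**Figure D2:**
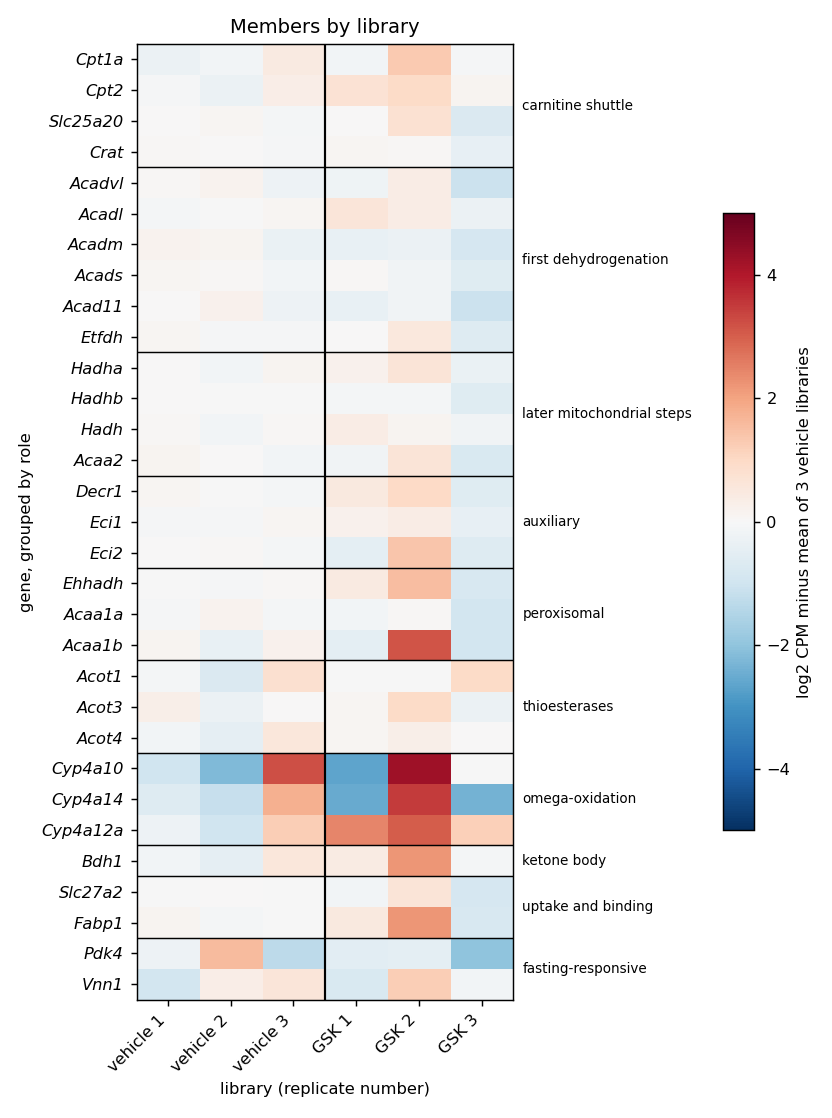
Log2 CPM of 31 tested members in each library minus the mean of the 3 vehicle libraries, ordered by role; red is above and blue below that mean, on a scale from -5 to 5. The column of GSK3326595 replicate 2 is red for most members and deepest for Acaa1b, Cyp4a10 and Cyp4a14, while that of replicate 3 is mostly blue; Cyp4a genes also vary within vehicle.

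Among the genes of the carnitine shuttle, Cpt1a encodes the rate-limiting carnitine palmitoyltransferase of the outer membrane (Ensembl ENSMUSG00000024900; chromosome 19, 3322334 to 3385733, plus strand). Cpt1a had 152, 167 and 254 CPM in vehicle and 170.5, 459 and 179.9 CPM in GSK3326595. GSK3326595 replicate 2 was the highest library and the groups overlapped. The means were 191 ± 55.3 and 269.7 ± 164 CPM (SD, n = 3 each), and the log2 values differed by 0.50 ± 0.44 (SE) (edgeR adjusted p = 0.767), or -0.07 without GSK3326595 replicate 2. Cpt2, its partner on the inner membrane (chromosome 4, 107903981 to 107923610, minus strand), had 68.2, 58.7 and 90.3 CPM against 118, 140.2 and 77.9 CPM. Only GSK3326595 replicate 3 fell within the vehicle range. Cpt2 differed by 0.63 ± 0.27 (edgeR adjusted p = 0.549), and this was one of the smallest unadjusted p-values among members, at 0.0564. Slc25a20, the carnitine-acylcarnitine carrier, differed by 0.14 ± 0.36 and Crat, carnitine acetyltransferase, by -0.07 ± 0.19. Crat was the steadiest of these, with a highest-to-lowest ratio of 1.45 over the libraries.

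The acyl-CoA dehydrogenases carry out the first step of each round, and Etfdh passes their electrons to ubiquinone. This was the role in which most members lay below 0, 4 of 6, with a median log2 difference of -0.22. That median was -0.39 without GSK3326595 replicate 2 and 0.03 without replicate 3, so its direction was not kept. Acadm (chromosome 3, 153922357 to 153944632, minus strand) had 504, 489.5 and 351 CPM in vehicle and 347, 358 and 245 CPM in GSK3326595. The lowest vehicle library fell within the GSK3326595 range. The means were 448 ± 84.5 and 316 ± 62.2 CPM (SD, n = 3 each), a difference of -0.50 ± 0.24 (edgeR adjusted p = 0.562). Acad11, an acyl-CoA dehydrogenase family member (chromosome 9, 104063377 to 104127725, plus strand), had 231, 261 and 189 CPM against 172, 197 and 106 CPM. Here too the groups overlapped, by GSK3326595 replicate 2 alone. Its difference was -0.52 ± 0.27 (edgeR adjusted p = 0.601). Acadm and Acad11 kept values below 0 without any single library, with ranges of -0.62 to -0.33 and -0.66 to -0.28. Acads, which acts on short chains, differed by -0.23 ± 0.21, Acadvl, on very long chains, by -0.21 ± 0.36, Acadl, on long chains, by 0.27 ± 0.25, and Etfdh by 0.04 ± 0.29. Acadvl reached 0.10 without GSK3326595 replicate 3.

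Hadha and Hadhb encode the alpha and beta subunits of the mitochondrial trifunctional protein, which performs the later steps for long chains. They lie head to head on chromosome 5, Hadha at 30118304 to 30155162 on the minus strand and Hadhb at 30155248 to 30184593 on the plus strand, and their RefSeq upstream windows overlap in the sequence printed above. Hadha had 277, 245 and 298 CPM in vehicle and 316, 428 and 219 CPM in GSK3326595, which overlapped. Its log2 difference was 0.23 ± 0.27 (edgeR adjusted p = 0.84), with 0.014 without GSK3326595 replicate 2 and 0.46 without replicate 3. Hadhb had 287, 281 and 279 CPM against 267, 265 and 188 CPM. It was the only member whose groups did not overlap, all GSK3326595 libraries being lower, and 7.66% of all tested genes were separated in that direction, 6.72% in the other and 14.4% in either. The difference was -0.24 ± 0.19 (edgeR adjusted p = 0.747), which became -0.07 without GSK3326595 replicate 3.

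The ratio of the 2 subunits is given as a description, since it was computed after the values of both genes were seen. Hadha CPM divided by Hadhb CPM was 0.965, 0.871 and 1.07 in vehicle and 1.19, 1.62 and 1.16 in GSK3326595. Every GSK3326595 library lay above every vehicle library. The means were 0.968 ± 0.0979 and 1.32 ± 0.256 (SD, n = 3 each), a log2 difference of 0.44. The ratio is free of library scaling, and its log2 difference ranged from 0.28 to 0.52 without single libraries. How often other gene pairs separate in this way was not tested. Hadhb counts were not whole in all 6 libraries and Hadha counts in 1, so a share of Hadhb reads was estimated among more than 1 match.

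**Figure D3:**
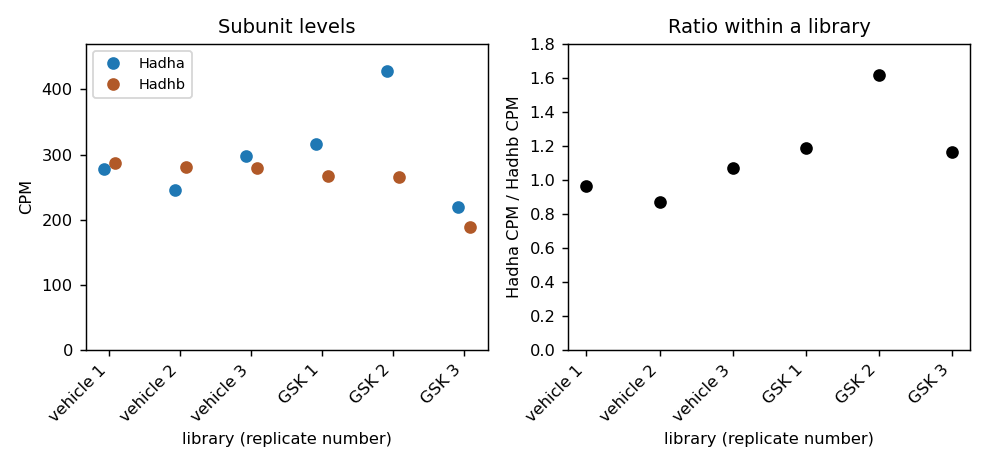
Left, CPM of Hadha and Hadhb in each library; right, the ratio of Hadha to Hadhb in each library, both on axes from 0. The ratio is 0.871 to 1.07 in the 3 vehicle libraries and 1.16 to 1.62 in the 3 GSK3326595 libraries.

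Hadh, the dehydrogenase for short and medium chains, differed by 0.12 ± 0.20, and Acaa2, which cleaves off acetyl-CoA in the last step, by 0.02 ± 0.35. Hadh was among the steadiest members, with a highest-to-lowest ratio of 1.46. Auxiliary enzymes prepare unsaturated chains for this cycle. Decr1, the dienoyl-CoA reductase, had 82.4, 75.5 and 71.9 CPM in vehicle and 106, 151 and 50.5 CPM in GSK3326595. Eci2, an enoyl-CoA isomerase, had 35.2, 36.5 and 32.7 CPM against 24.8, 92.2 and 22.2 CPM. In both genes the vehicle libraries were close together and the GSK3326595 libraries lay on both sides of them. Decr1 differed by 0.42 ± 0.37 (edgeR adjusted p = 0.772), with 0.071 without GSK3326595 replicate 2 and 0.76 without replicate 3. Eci2 differed by 0.42 ± 0.55 (edgeR adjusted p = 0.868), which was -0.52 ± 0.17 without GSK3326595 replicate 2 (edgeR adjusted p = 0.46). Eci1, a mitochondrial isomerase of the same kind, differed by 0.10 ± 0.23.

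Of the peroxisomal enzymes, Ehhadh, the bifunctional hydratase and dehydrogenase, had 31.1, 30.0 and 32.7 CPM in vehicle and 42.5, 90.2 and 17.7 CPM in GSK3326595. GSK3326595 replicates 1 and 2 lay above the vehicle range and replicate 3 below it. The log2 difference was 0.68 ± 0.53 (edgeR adjusted p = 0.733), and 1.10 ± 0.32 without GSK3326595 replicate 3 (edgeR adjusted p = 0.321). Acaa1a and Acaa1b both encode peroxisomal thiolase, the last step of that cycle, and lie on chromosome 9 (Acaa1a at 119339676 to 119350299, plus strand; Acaa1b at 119148023 to 119157093, minus strand). Acaa1b had 51.6, 36.1 and 54.2 CPM in vehicle and 33.2, 415 and 24.7 CPM in GSK3326595. Its value in GSK3326595 replicate 2 was 7.66 times that of the next highest library, the widest such gap among the members. The means were 47.3 ± 9.75 and 158 ± 223 CPM (SD, n = 3 each), a difference of 1.74 ± 1.05 (edgeR adjusted p = 0.655) that became -0.66 ± 0.25 without that library (edgeR adjusted p = 0.484). Acaa1a had 70.3, 82.7 and 67.7 CPM against 65.8, 76.3 and 38.5 CPM (-0.29 ± 0.27, edgeR adjusted p = 0.785).

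The 2 thiolase genes thus parted in GSK3326595 replicate 2. Acaa1b took 42.3%, 30.4% and 44.4% of the reads of the pair in vehicle replicates 1, 2 and 3, and 33.6%, 84.5% and 39.0% in GSK3326595 replicates 1, 2 and 3. Their longest reading frames are 96.55% identical, with a longest identical run of 327 bases. All 6 counts of both genes were not whole, so some of their reads were divided among genes by the authors' estimate. Summed as 1 feature, the pair had 122, 119 and 122 CPM in vehicle and 99.0, 491 and 63.2 CPM in GSK3326595 (0.85 ± 0.73, edgeR adjusted p = 0.762). The high value in replicate 2 therefore stands in the sum as well as in Acaa1b.

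**Figure D4:**
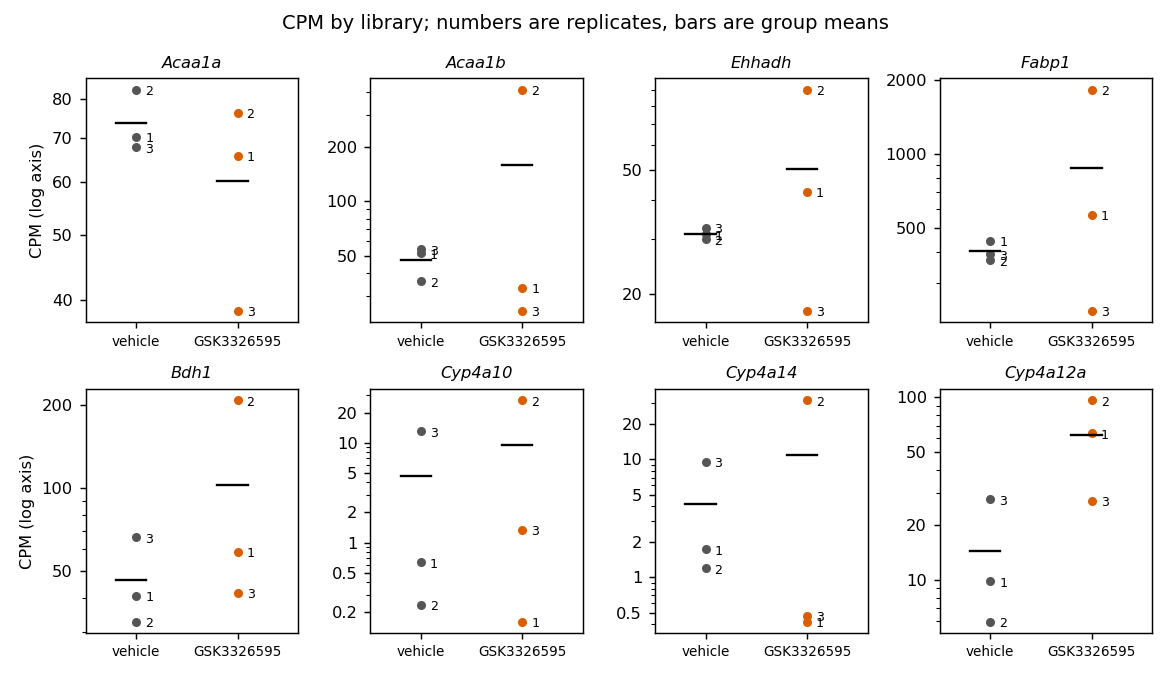
CPM (log axes) of 8 members in the 3 vehicle and 3 GSK3326595 libraries; numbers beside dots are replicates and bars are group means. GSK3326595 replicate 2 is the highest library in 7 of the 8 panels, all but Acaa1a, and Cyp4a10 and Cyp4a14 have a high vehicle replicate 3.

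Acyl-CoA thioesterases release free fatty acids from CoA. Acot1, the cytosolic form, had 46.0, 29.3 and 86.0 CPM in vehicle and 48.6, 48.2 and 93.8 CPM in GSK3326595. It was highest in replicate 3 of each group, and was the only member with its highest value in GSK3326595 replicate 3. Acot3, a peroxisomal form, had 22.4, 14.7 and 18.5 CPM against 19.4, 35.3 and 14.9 CPM. Acot4, also peroxisomal, ranged from 14.9 to 30.5 CPM over all 6 libraries. The log2 differences were 0.24 ± 0.45, 0.33 ± 0.36 and 0.08 ± 0.29. Acot1 and Acot3 share 81.45% of their reading frame, and all 6 counts of each were not whole. With which genes those reads were shared was not examined. The 3 thioesterases summed differed by 0.22 ± 0.32 (edgeR adjusted p = 0.886).

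Among the tested members, the omega-oxidation enzymes Cyp4a10 and Cyp4a14 had the widest spread between highest and lowest library. Cyp4a10 and Cyp4a14, fatty acid hydroxylases and classic PPARA targets, lie next to each other on chromosome 4 (Cyp4a10 at 115518264 to 115533649, plus strand; Cyp4a14 at 115486200 to 115496142, minus strand). Cyp4a10 had 0.637, 0.238 and 13.0 CPM in vehicle and 0.161, 26.6 and 1.33 CPM in GSK3326595. Cyp4a14 had 1.72, 1.19 and 9.52 CPM against 0.419, 31.7 and 0.469 CPM. Both were high in vehicle replicate 3 and GSK3326595 replicate 2 and low in the other 4 libraries. The ratio of the highest to the lowest library was 165 for Cyp4a10 and 75.7 for Cyp4a14, where the lowest values rest on 5 and 13 counts. The differences were 1.02 ± 1.88 and 1.39 ± 1.67 (edgeR adjusted p = 0.923 and 0.848), and -2.57 and -3.16 without GSK3326595 replicate 2. Without vehicle replicate 3 they were 4.43 and 2.92.

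Cyp4a12a, the CYP4A enzyme of male mouse liver (chromosome 4, 115299046 to 115332815, plus strand), had the smallest p of the members. It had 9.88, 5.92 and 27.7 CPM in vehicle and 63.7, 96.5 and 27.2 CPM in GSK3326595. Only GSK3326595 replicate 3 fell within the vehicle range. The means were 14.5 ± 11.6 and 62.5 ± 34.7 CPM (SD, n = 3 each). Cyp4a12a differed by 2.10 ± 0.69 on the log2 scale, with an edgeR p of 0.0192 unadjusted and 0.522 adjusted over all genes, and a DESeq2 adjusted p of 0.0572. It stayed above 0 without any single library, from 1.68 without GSK3326595 replicate 2 to 3.01 without vehicle replicate 3. The longest reading frame of Cyp4a12a is 98.49% identical to that of Cyp4a12b, so the division of reads between them is uncertain. Summed, they had 24.7, 17.0 and 44.7 CPM against 86.8, 113.5 and 34.7 CPM (1.44 ± 0.52, edgeR adjusted p = 0.522). With Cyp4a12a summed with Cyp4a10 and Cyp4a14 instead, the difference was 1.83 ± 0.87 (edgeR adjusted p = 0.57). The unadjusted edgeR value was then 0.0765. The pass at an unadjusted p under 0.05 was thus lost in this sum and kept in the sum with Cyp4a12b. Other male-biased liver genes (8 genes, Cyp4a12b included) summed to 57.9 to 124 CPM in vehicle and to 53.6, 663 and 82.9 CPM in GSK3326595 replicates 1, 2 and 3. In GSK3326595 replicate 1, where Cyp4a12a was 63.7 CPM, that sum was the lowest of the 6, but the listed genes were mixed. Cyp4a12b (23.1 CPM) and Hsd3b5 (0.226 CPM) lay above the vehicle range there, and Selenbp2 (16.1 CPM) and Cyp2d9 (8.86 CPM) below it. Cyp7b1, Mup20, Elovl3 and Slco1a1 lay within it. Female-biased liver genes (8 genes) summed to 2.63 to 16.03 CPM against 8.86, 80.4 and 0.794 CPM. The part of either list in the values of Cyp4a12a was not tested.

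Bdh1 converts acetoacetate to beta-hydroxybutyrate, the last step of ketone body formation (chromosome 16, 31422280 to 31458901, plus strand). It had 40.7, 32.8 and 66.4 CPM in vehicle and 58.7, 208 and 41.7 CPM in GSK3326595. Replicate 2 was 3.14 times the next highest library, and the remaining GSK3326595 libraries lay within the vehicle range. Bdh1 differed by 1.14 ± 0.63 (edgeR adjusted p = 0.628), and by 0.15 ± 0.34 without GSK3326595 replicate 2 (edgeR adjusted p = 0.91).

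Fabp1 (chromosome 6, 71199827 to 71205023, plus strand) had 444, 370.4 and 392 CPM in vehicle and 565, 1831 and 229.9 CPM in GSK3326595. No GSK3326595 library lay within the vehicle range, as replicates 1 and 2 were above it and replicate 3 below. The means were 402 ± 37.8 and 875 ± 844 CPM (SD, n = 3 each), a difference of 1.12 ± 0.68 (edgeR adjusted p = 0.657). It was 0.02 ± 0.37 without GSK3326595 replicate 2 and 1.59 ± 0.48 without replicate 3 (edgeR adjusted p = 0.988 and 0.321). Slc27a2, a transporter that also activates very long chains, had 392, 398 and 387 CPM in vehicle against 361, 614 and 221 CPM. The vehicle SD was 5.72 CPM and the GSK3326595 SD 199 CPM, around means of 392 and 398 CPM. Its difference was 0.02 ± 0.36 (edgeR adjusted p = 0.992).

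The last 3 members respond to fasting but lie outside the pathway. Pdk4, a kinase that shuts off pyruvate dehydrogenase when fat is burned (chromosome 6, 5483351 to 5496309, minus strand), had 5.19, 18.9 and 2.48 CPM in vehicle and 4.38, 4.50 and 1.52 CPM in GSK3326595. Vehicle replicate 2 was 3.65 times the next highest library. Pdk4 differed by -1.35 ± 0.80 (edgeR adjusted p = 0.646), and by -0.15 without vehicle replicate 2. Vnn1, a pantetheinase, differed by 0.24 ± 0.67 at 0.478 to 2.39 CPM. Fgf21, the hepatic fasting hormone, did not pass the filter on low counts, with 34, 9 and 6 counts in vehicle and 0, 13 and 2 counts in GSK3326595.

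**Figure D5:**
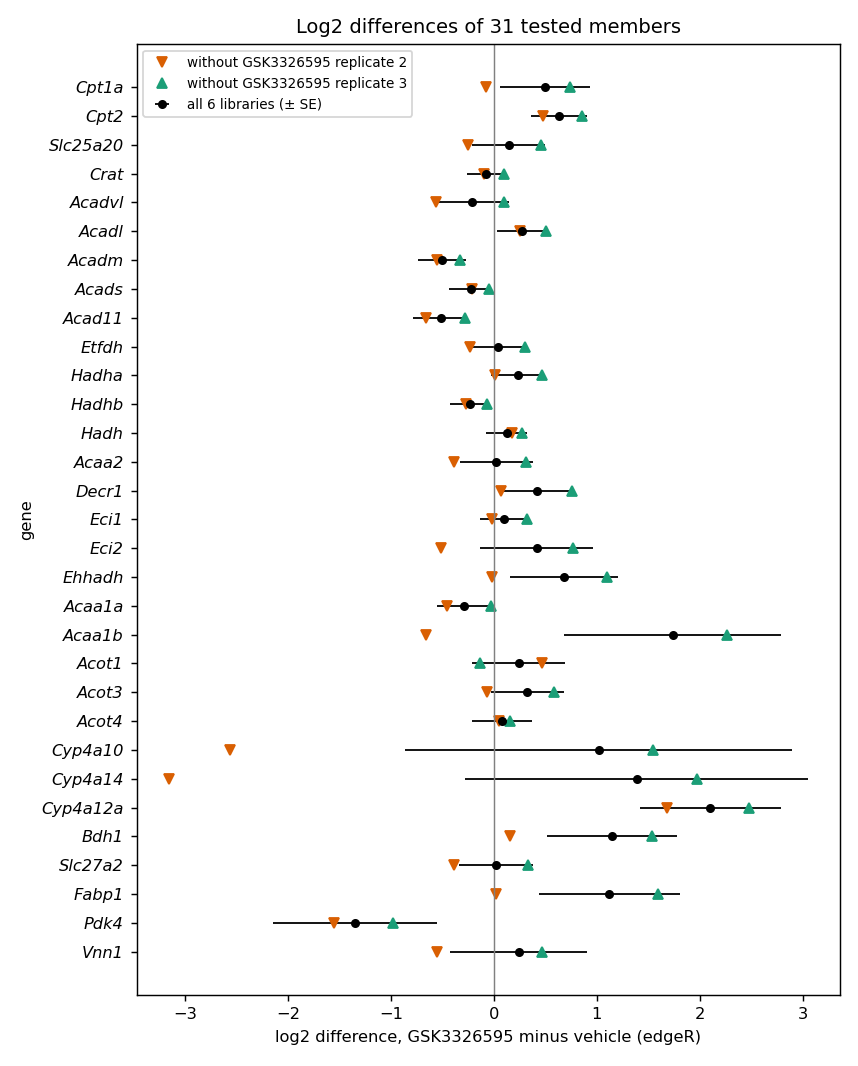
Log2 difference (GSK3326595 minus vehicle) of the 31 tested members by edgeR with all 6 libraries (black, ± SE), without GSK3326595 replicate 2 (orange) and without GSK3326595 replicate 3 (green). The green marker lies to the right of the orange one for 30 of the 31 members, all but Acot1.

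Of 64 other genes of the pathway, 61 were tested and 33 had values above and 28 below 0. Their median was 0.06, and it ran from -0.27 without GSK3326595 replicate 2 to 0.27 without replicate 3. None was called over all genes, where 0% were, and 3 were higher and 1 lower at an unadjusted edgeR p under 0.05, against 5.45% and 3.81% of all genes. GSK3326595 replicate 2 was highest in 39 and replicate 3 lowest in 37 of the 61. Ppara, the receptor itself, had 81.3, 94.7 and 51.7 CPM in vehicle and 64.3, 95.3 and 21.5 CPM in GSK3326595 (-0.33 ± 0.52, edgeR adjusted p = 0.901). GSK3326595 replicate 2 was its highest library by a narrow margin, replicate 3 was the lowest, and the groups overlapped.

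The 5 other genes of smallest p were Crot, Cpt1b, Acsl5, Acacb and Cd36. Crot, a peroxisomal carnitine acyltransferase, had 87.5, 81.1 and 93.7 CPM in vehicle and 202, 226 and 82.6 CPM in GSK3326595 (0.96 ± 0.37, edgeR adjusted p = 0.524). Only replicate 3 of GSK3326595 lay within the vehicle range. Cpt1b, the muscle-type partner of Cpt1a, had 110.0, 113 and 97.4 CPM against 93.3, 57.1 and 48.0 CPM, with no overlap (-0.69 ± 0.27, edgeR adjusted p = 0.524). Of the 61 other genes tested, 1 was separated lower, Cpt1b, and 1 higher, Abcd3, against 7.66% and 6.72% of all tested genes. Cpt1a made up 57.9%, 59.6% and 72.3% of the reads of Cpt1a and Cpt1b together in vehicle, and 64.6%, 88.9% and 78.9% in GSK3326595, which overlapped. Acsl5, an acyl-CoA synthetase, had 121, 109.9 and 142 CPM in vehicle and 193, 257 and 138 CPM in GSK3326595. Acacb, whose product malonyl-CoA inhibits Cpt1a, had 13.5, 9.46 and 18.7 CPM against 11.8, 61.7 and 43.2 CPM. Cd36, a fatty acid translocase, had 16.5, 30.9 and 26.3 CPM against 39.7, 75.2 and 27.4 CPM. Differences were 0.66 ± 0.26, 1.48 ± 0.59 and 0.95 ± 0.42 in that order (edgeR adjusted p = 0.526, 0.526 and 0.55). Each had overlapping groups and its highest value in GSK3326595 replicate 2.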

How the data were processed

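Libraries were made from total RNA of the tumors with a kit that keeps strand, per the labels' protocols. The authors deposited expected counts per gene, without scaling. The tools cutadapt, STAR, Picard and RSEM and the build mm10 are named per the submitters' processing notes, and tool versions and the annotation release are not given in the sources used here. A share of 12.3% of the counts was not whole, and values of near-identical genes depend on how RSEM divided shared reads. Expected counts were rounded. Genes were filtered with filterByExpr (minimum count 10), scaled by TMM and tested with edgeR 4.0.16 (quasi-likelihood, two-sided, R 4.3.3), with Benjamini-Hochberg adjustment over 17012 genes and a threshold of 0.05; each SE was obtained from the F statistic and the log2 difference. CPM includes the TMM factors, and 2 was the prior count for log2 CPM. DESeq2 1.42.0 and limma 3.58.1 were alternatives. The 3 tests were first run on simulated counts with known changes, drawn with edgeR's own estimates of the spread between libraries. There DESeq2 made more false calls than edgeR or limma-voom. Whether its calls in the tumors were false was not tested. Coordinates and transcript lengths (1-based) come from GENCODE M21, whose build is that of the files; all 32 members matched by gene ID, 19 with the same version.

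The members, their roles and the lists were chosen with earlier results of these data known. Full values were to be given for the 8 members of smallest p, the paralogs, Cpt1a, Hadha, Bdh1 and Fabp1, and, of other pathway genes, for Ppara and the 5 of smallest p. Some genes are not reported here. Hadhb, Ehhadh, Decr1, Eci2 and Slc27a2 were chosen after their values were seen. Replicate numbers do not pair the samples by the labels.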

Additional observations from a re-analysis of the deposited data

How the results depend on the processing

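The alternatives are those listed with the design, except the sum of Cyp4a12a and Cyp4a12b (log2 difference 1.44), which was chosen after seeing the data. By edgeR 0 genes and 0 members were called under every scaling, filter and block tried and without each library; 313 genes but 0 members were called by DESeq2, and the cause was not tested. The 1 member higher at an unadjusted p became 2 with no scaling beyond total counts, with RLE or upper-quartile scaling, with no filter and with at least 1 CPM in 3 libraries, and ranged from 0 to 7 without single libraries; the 0 lower ranged from 0 to 4. With paralogs summed, 0 of the 23 members left as single genes were higher or lower. Cyp4a12a, the 1 member past that level in the main fit, is not among the 23, so this count does not bear on it. With no scaling beyond total counts the median of all genes was 0.12. The members above 0 ranged from 10 to 24 and those below from 8 to 21 without single libraries, and the members' median from -0.21 to 0.39.

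Deviations from the group means correlated at -0.07, 0.07 and 0.32 between samples numbered 1, 2 and 3. Only the samples numbered 3 deviated together, and the numbers were not taken as pairs. With the replicate block 1 member was higher and 2 lower at an unadjusted p, 13 lay below 0, and 0 genes were called. The block turned Etfdh (-0.037), Acaa2 (-0.091), Cyp4a10 (-0.62), Cyp4a14 (-1.19) and Slc27a2 (-0.10). Limma-voom turned Etfdh (-0.035), Acaa2 (-0.089), Cyp4a14 (-0.50) and Slc27a2 (-0.10), and total counts turned Crat (0.013). The cause was not tested. Of 363 values of single genes under settings that keep all libraries, 353 kept their direction.

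Without single libraries, the log2 differences that changed direction ranged from -0.074 to 0.79 for Cpt1a, -0.25 to 0.45 for Slc25a20, -0.17 to 0.094 for Crat, -0.57 to 0.10 for Acadvl, -0.23 to 0.31 for Etfdh, -0.022 to 0.27 for Hadh, -0.39 to 0.32 for Acaa2, -0.018 to 0.32 for Eci1, -0.52 to 0.77 for Eci2, -0.017 to 1.10 for Ehhadh, -0.66 to 2.26 for Acaa1b, -0.13 to 0.80 for Acot1, -0.064 to 0.58 for Acot3, -0.13 to 0.46 for Acot4, -2.57 to 4.43 for Cyp4a10, -3.16 to 2.92 for Cyp4a14, -0.39 to 0.33 for Slc27a2, -0.55 to 0.60 for Vnn1 and -0.79 to 0.089 for Ppara. None of these genes was called by edgeR in any of these fits, which hold fewer samples.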
